A study of Mus musculus with 8 samples.

Results

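The goblet cell genes examined here are 10 genes for the mucus and secreted products of goblet cells, compared between the ileum of LGR5-null and wild-type mouse embryos. They were chosen by name and matched to probes through the gene symbol in the platform's probe annotation. Of the 10 genes, 8 had a probe (Tff3, Agr2, Clca1, Spink4, Zg16, Retnlb, Klk1 and Creb3l1), giving 9 probes of the 36591 tested, with 2 for Clca1. Muc2 and Fcgbp matched no annotated probe and were not analysed here. All 9 probes entered the tests, with no filter on low values.

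LGR5, a receptor for R-spondins in the Wnt pathway, marks intestinal stem cells, and the study's title asks how cell lineages differentiate in its absence. Each of 4 pairs consisted of 1 LGR5-/- and 1 LGR5+/+ embryo of stage E18.5 to E19, late in gestation, and the parents of both genotypes were LGR5+/- couples, 3 in number. Ileum RNA of a pair was amplified, labelled and hybridised to the same MEEBO array (70-base mouse oligonucleotides), and a second array of the pair carried the same RNA with Cy5 and Cy3 exchanged, 8 arrays in all. The sources used here do not say which pairs share a couple, of what sex the embryos were or how Lgr5 was inactivated.

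The deposited values are log ratios, and no source used here gives their base or numerator. They were read as log2 of null over wild type. The direction is likely but rests on the data. The 2 dye-swapped arrays of a pair correlated at 0.312 to 0.783 across probes, and the Lgr5 probe lay between -2.10 and -0.79 on the 8 arrays. Neither bears on the base, and base 2 was assumed. Array medians lay between -0.002 and 0.002. With that base, -1 in the ratios that follow is a level in the null embryo of 0.5 of that in its wild-type partner. All fold levels given below rest on the same assumption. Ratios carry no level, so neither the abundance of a gene nor the presence of a marker could be read from them. In whole ileum, fewer goblet cells and less RNA of a gene per goblet cell cannot be told apart.

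Goblet cells are the mucus-secreting cells of the gut epithelium, and they arise from the secretory lineage together with Paneth and enteroendocrine cells. Their granules hold the gel-forming mucin Muc2, whose chains are folded and joined in the endoplasmic reticulum and coated with sugars in the Golgi, and smaller proteins released with it. Atoh1 and Spdef are transcription factors needed for the lineage and for its maturation. In the mouse gut, goblet cells are present before birth and become more frequent from the proximal small intestine to the colon.

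All 8 measured goblet cell genes had a mean ratio below 0, with the lowest ratios in pairs 1 and 4, and no probe passed the test across the 4 pairs. A mean below 0 was found for 9 of the 9 probes and for 49.4% of all tested probes. The median of the 9 probes was -0.50, against 0.0009 for all tested probes, and their pair medians were -1.34, -0.09, -0.06 and -0.61 in pairs 1 to 4. The lowest means were those of Retnlb, Klk1 and Agr2, and the means nearest to 0 those of Creb3l1 and of 1 Clca1 probe. Without pair 1 the median of the 9 was -0.17. Of the 9 probes, 0 had a limma adjusted p under 0.05, as had 0% of all tested probes, where the lowest adjusted p was 0.480. The Lgr5 probe itself, at -1.59 ± 0.47 (SD, n = 4) and below 0 on all 8 arrays, did not pass in limma either (adjusted p = 0.723). The goblet probes varied more between pairs than most, with a median SD of 0.669 against 0.0959 for all tested probes. At an unadjusted p under 0.05, 4 of the 9 were lower and 0 higher, against 3.15% and 2.33% of all tested probes. With the pair as a random block 0 of the 9 passed after adjustment, against 0.0328% of all. A mean below -0.5 was found for 4 of the 9 and for 0.353% of all, and ratios below 0 in all 4 pairs for 4 of the 9 and for 7.44%. For 4 pairs, the smallest 2-sided p of an exact sign-flip test is 0.125.

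Zg16, a lectin of the mucus layer that binds bacteria, differed most between pairs. With the null sample in Cy5 and then in Cy3, its ratio was -2.77 and -2.95 for pair 1 and -0.01 and 0.17 for pair 2. For pair 3 it was 1.03 and 0.98, and for pair 4 it was -0.67 and -0.54. Pair 1 thus stood at 0.138 of the wild-type level and pair 3 at 2.00 times that level, and dye-swapped arrays of a pair lay within 0.183 of each other. The mean was -0.60 ± 1.65 (SD, n = 4), with a 95% confidence interval of -2.23 to 1.04 (adjusted p = 0.881). Its range over pairs, 3.87, ranked 22nd among the 36591 tested probes. Without pair 1 the mean was 0.16, and its direction changed, and without pair 3 it was -1.13.

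Retnlb, the resistin-like protein beta secreted by goblet cells, had the lowest mean of the 9 probes. Its ratios were -1.98 and -2.04 in pair 1 with the null sample in Cy5 and in Cy3, 0.08 and -0.03 in pair 2, -0.40 and -0.39 in pair 3, and -0.92 and -0.84 in pair 4. Pairs 1, 3 and 4 were below 0 on both arrays, and pair 2 lay around 0. The mean was -0.82 ± 0.88 (SD, n = 4; adjusted p = 0.867), or 0.568 of the wild-type level, with a 95% confidence interval of 0.310 to 1.04 on the fold scale. Without pair 1 the mean was -0.42.

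Klk1, the tissue kallikrein, a secreted serine protease, was below 0 on all 8 arrays. In pairs 1 to 4 the ratios were -1.78 and -1.65, -0.19 and -0.33, -0.14 and -0.26, and -0.69 and -0.91, with the null sample in Cy5 given first. Pairs 1 and 4 were the lower ones, and pairs 2 and 3 lay close to each other, at -0.26 and -0.20. The mean was -0.74 ± 0.70 (SD, n = 4), with a 95% confidence interval of -1.44 to -0.05 and an adjusted p of 0.867. It was -0.42 without pair 1.

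Agr2, a protein disulphide isomerase of the endoplasmic reticulum needed for mucin production, was low in the same pairs. Its ratios were -1.32 and -1.70 in pair 1, -0.06 and -0.31 in pair 2, 0.15 and -0.04 in pair 3, and -1.58 and -0.83 in pair 4, in the same dye order. The arrays of pair 4 differed by 0.751, the largest gap between arrays of a pair for any of the 9 probes. The pair means of 1 and 4, at -1.51 and -1.20, were not told apart (adjusted p = 0.519). The mean over pairs was -0.71 ± 0.76 (SD, n = 4; adjusted p = 0.867), and -0.44 without pair 1.

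Tff3, a trefoil peptide that protects and repairs the mucosa, was lower beyond technical error in pair 1 alone. There its ratios were -1.18 and -1.50, against 0.20 and -0.26 in pair 2, 0.26 and 0.04 in pair 3, and -0.20 and -0.29 in pair 4. Spink4, a protease inhibitor of the Kazal type, stood at -0.99 and -0.94 in pair 1, -0.36 and -0.28 in pair 2, -0.05 and 0.18 in pair 3, and -0.27 and -0.26 in pair 4. Their means, -0.37 ± 0.67 and -0.37 ± 0.43 (SD, n = 4; adjusted p = 0.867 for both), were nearly equal. Without pair 1 they were -0.04 for Tff3 and -0.17 for Spink4.

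Clca1, a secreted metalloprotease of the mucus gel, was measured by probes that differed in size of response. Probe mMR027145 stood at -0.94, -0.22, -0.13 and -0.69 in pairs 1 to 4, which gave -0.50 ± 0.38 as mean and SD (n = 4; limma adjusted p = 0.864). Probe mMC008784 stood at -0.26, -0.09, -0.14 and -0.23, which gave -0.18 ± 0.08 (limma adjusted p = 0.806). Both were below 0 on all 8 arrays, which held for 4 of the 9 goblet probes and 1.77% of all tested probes. Creb3l1, a transcription factor held in the endoplasmic reticulum membrane until cleaved and linked to the secretory machinery, stood at -0.15, -0.08, -0.06 and -0.34. Its mean was -0.16 ± 0.13 (SD, n = 4; adjusted p = 0.867), the nearest to 0 of the 9, and -0.09 without pair 4. Creb3l1 was also the single probe whose lowest pair was pair 4.

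**Figure D1:**
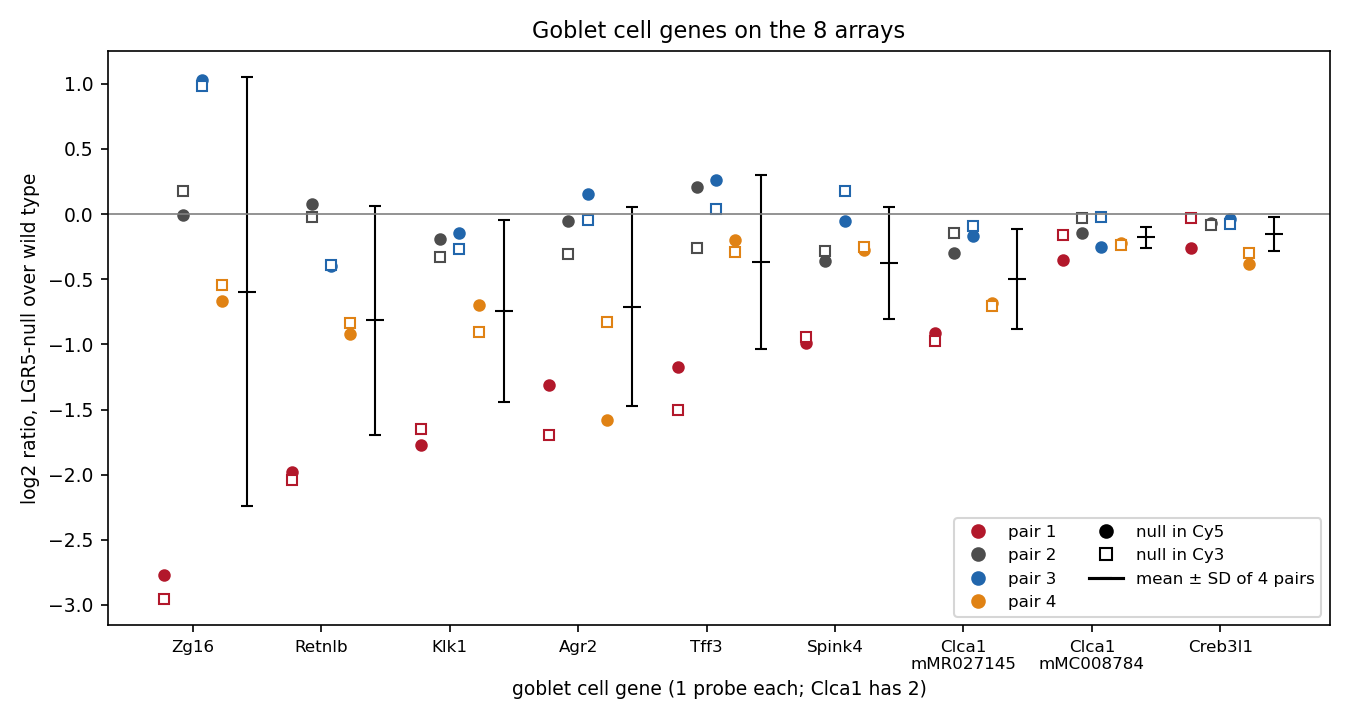
Log2 ratio of null over wild type (vertical axis) for each goblet cell probe (horizontal axis) on all 8 arrays, with colours for pairs, filled circles for the null sample in Cy5, open squares for it in Cy3, and black bars for the mean ± SD of 4 pairs. Pair 1 is the lowest pair for 8 of the 9 probes, and pair 4 is the second lowest for 7.

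Differences between the 4 pairs exceeded technical error for 7 of the 9 goblet probes, against 22.9% of all tested probes, at an adjusted p under 0.05 in limma's moderated F-test. That error is the one between dye-swapped arrays of the same RNA, so the test compares embryos and says nothing on genotype. The adjusted p was 2.58e-05 for Zg16, 6.05e-05 for Retnlb, 0.000421 for Klk1 and 0.000618 for Tff3. For Spink4 it was 0.00117, for Clca1 probe mMR027145 0.00191 and for Agr2 0.0135. Clca1 probe mMC008784 and Creb3l1, with ranges of 0.170 and 0.285 over the pairs, did not pass (0.362 and 0.126). The median range over pairs was 1.49 for the goblet probes and 0.215 for all tested probes. Without pair 1 the number past the threshold was 4, and over all 36591 tested probes the number fell from 8384 to 1564. The dye term passed for 0 of the 9 probes and 3.60% of all, and the median gap between arrays of a pair was 0.089 to 0.183 over the 9.

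Within pair 1, 8 of the 9 goblet probes were lower in the null embryo beyond technical error, against 13.0% of all tested probes, and 0 were higher, against 10.5%. The exception was Creb3l1 (adjusted p = 0.136). Within pair 4, 7 of the 9 were lower, against 4.46% of all, and 0 were higher, against 4.16%. Tff3 (adjusted p = 0.0803) and Clca1 probe mMC008784 (0.0554) did not pass there. Within pair 2 only Spink4 was lower, at -0.32 (adjusted p = 0.0290), where 1.81% of all probes were lower, and 0 of the 9 were higher, against 1.27%. Within pair 3 Retnlb was lower, at -0.40 (adjusted p = 0.00531), and Zg16 higher, at 1.00 (0.000373), against 3.93% lower and 4.32% higher of all.

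The order of the pairs was shared by most of the genes. Pair 1 was the lowest of the 4 for 8 of the 9 probes (30.1% of all tested probes), and pairs 1 and 4 were the lower ones for 8 (17.0%). Pair 3 was the highest for 7 of the 9 (26.6%). Pairs 1 and 2 differed for 7 of the 9 (16.5% of all) and pairs 1 and 3 for 7 (18.2%). Pairs 1 and 4 differed for 5 of the 9 (17.7% of all), namely Zg16, Retnlb, Klk1, Tff3 and Spink4. Pairs 2 and 3, the neighbours at the upper end, differed for Zg16, Retnlb and Spink4, or 3 of the 9 (5.81%). Pairs 3 and 4 differed for 5 of the 9 (4.33%) and pairs 2 and 4 for 4 (5.35%).

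**Figure D2:**
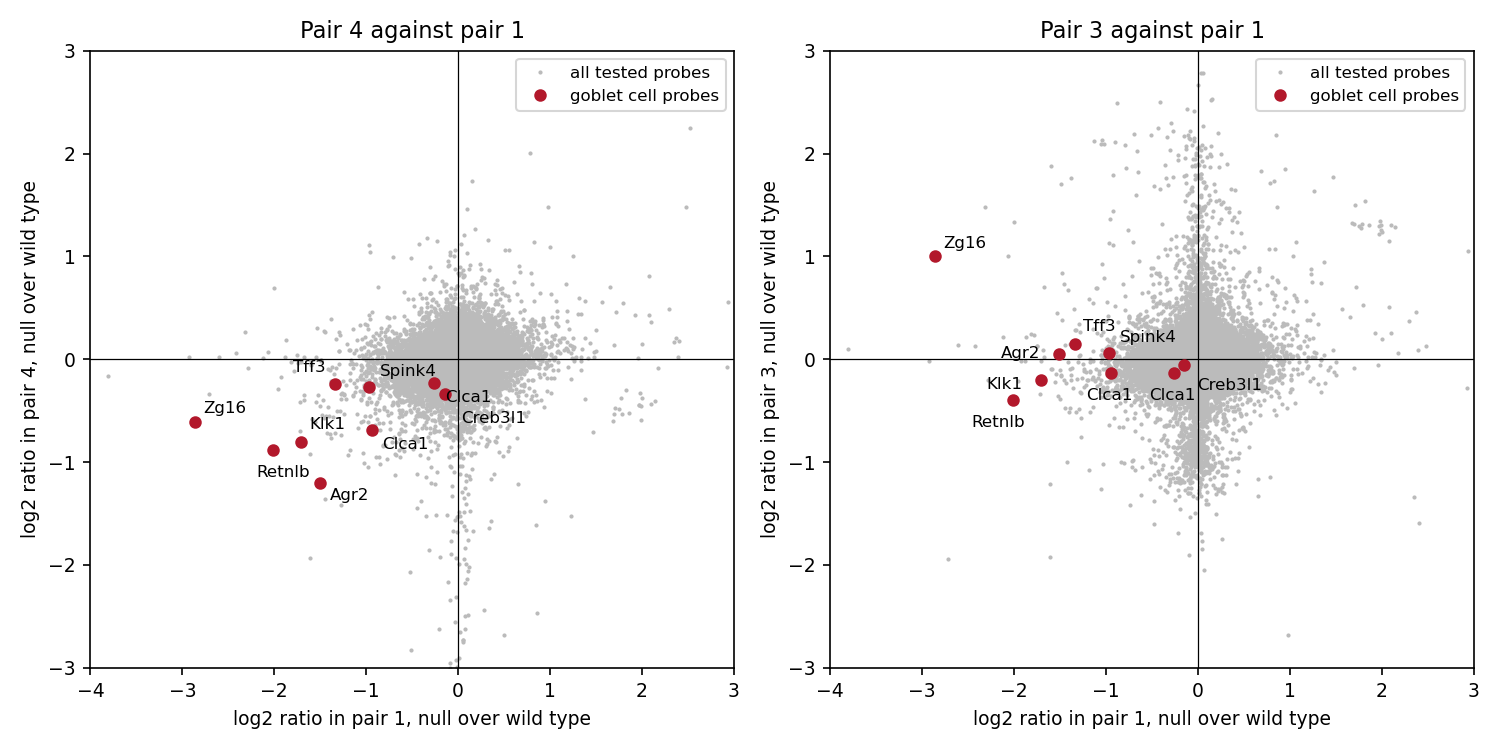
Log2 ratio in pair 4 (left panel, vertical axis) and in pair 3 (right panel, vertical axis) against that in pair 1 (horizontal axes), for all tested probes in grey and the 9 goblet cell probes in red, with 30 probes outside the axes. All 9 goblet probes lie below 0 in pairs 1 and 4, whereas in pair 3 they lie between -0.40 and 1.00.

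Other genes moved with the pairs, and their part in the goblet result was not tested. Posterior Hox genes, which mark levels of the body axis, had 7 of 15 measured members lower in pair 1 at gene level, against 16.2% of all 15123 genes, led by Hoxd10 at -3.81 and Hoxa11 at -2.61. There 1 was higher, Hoxc9 at 0.75, against 14.6% of all genes. In pair 4 the same 15 genes lay between -0.17 and 0.18, and 0 were lower, against 6.65% of all genes. Among 9 measured genes listed for colon epithelium, 3 were lower and 1 higher in pair 1, against 16.2% and 14.6% of all genes. Aqp8, a water channel, stood at -2.06, 0.08, 1.01 and 0.07 in pairs 1 to 4. Car1, a carbonic anhydrase that erythroid cells also make, stood at -1.05, -0.03, 0.92 and -0.07. Zg16 had the same order over pairs 1 to 3, at -2.86, 0.08 and 1.00, but stood at -0.61 in pair 4. The median of the colon list was -0.04, 0.02, 0.09 and 0.003, and Car4, Hoxb13 and Fxyd4 lay within 0.09 of 0 in all pairs. Slc26a3 of the same list went the other way in pairs 1 and 3, at 0.28, -0.14, -0.27 and -0.26 in pairs 1 to 4. All 3 measured Y-linked genes were lower in pair 1, with Eif2s3y at -4.56, Kdm5d at -2.42 and Uty at -0.31. That is the pattern of a female null beside a male wild-type embryo, so sex and genotype cannot be told apart in pair 1. In pairs 2 to 4 Eif2s3y stood at 0.01, 0.90 and -0.04, and Kdm5d at -0.055, 0.132 and 0.065.

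Genes of the epithelium as a whole had medians near 0. The 11 measured epithelial genes had medians of 0.06, 0.02, -0.03 and 0.06 in pairs 1 to 4 and ranged from -0.26 to 0.47 in pair 1. There 2 were lower and 3 higher, against 16.2% and 14.6% of all 15123 genes. In pair 4, where they ranged from -0.235 to 0.41, 1 was lower and 4 were higher, against 6.65% and 6.20%. The highest in pair 4 was Cdx1. The adhesion genes Epcam and Cdh1 stood at 0.09 and 0.02 in pair 1 and at 0.14 and 0.01 in pair 4. The measured Paneth cell markers had medians of 0.89, 0.23, 0.90 and 0.44, and of the 6, Itln1 alone had a mean below 0. Enterocyte markers had medians of 0.67, -0.11, 0.06 and -0.03. Of 10 enteroendocrine genes, 5 were lower and 2 higher in pair 1, against 16.2% and 14.6% of all genes. In pair 4, 2 were lower and 1 higher, against 6.65% and 6.20%. Among these 10 genes the somatostatin gene Sst stood at -1.41, -0.50, -0.03 and -0.47, whereas Gip stood at 0.56 in pair 1 and Tac1 at 0.61 in pair 4. Of 8 tuft cell genes, 2 were lower in pair 1 and 1 in pair 4, and 0 were higher in either, against the same shares of all genes. In pair 3, 3 of the 8 were higher and 0 lower, against 4.32% and 3.93% of all tested probes. The channel gene Trpm5 stood at -0.93, -0.06, -0.10 and -0.22, whereas Plcb2 and Gfi1b stood at 1.54 and 0.94 in pair 3.

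Markers of gene induction and of neighbouring organs also differed between pairs, and their part in the goblet result was not tested. Immediate early genes, which respond quickly to stimuli, had medians of 0.78, -0.10, 0.14 and 0.24 in pairs 1 to 4. Of the 11, 10 were higher in pair 1 and 8 in pair 4, the pairs with low goblet genes, against 3 in pair 3 and 0 in pair 2, where 2 were lower. Over all genes 14.6% were higher in pair 1 and 6.20% in pair 4. Over all tested probes 4.32% were higher in pair 3 and 1.27% in pair 2, where 1.81% were lower. In pair 3, 7 of 7 pancreas and 10 of 10 liver markers were higher, with medians of 1.96 and 1.95, against 4.32% of all tested probes. In pair 4, 4 of 7 and 6 of 10 were higher, with medians of 0.19 and 0.44, against 6.20% of all genes. Pnliprp1, a pancreatic lipase-related protein, stood at 1.46 there. Zg16 was high in pair 3 and low in pair 4.

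Among 12 other genes listed as products of goblet cells, not all of them particular to these cells, the ratios were smaller and went both ways. Lower in pair 1 were 5 of 12, against 16.2% of all 15123 genes, and higher were 2, against 14.6%. Bcas1 stood at -0.76, -0.003, 0.08 and -0.21 in pairs 1 to 4, and Galnt12, which starts mucin-type sugar chains, at -0.62, 0.11, 0.13 and -0.21. Those 2 genes were also the ones lower in pair 4, where 6.65% of all genes were lower and 6.20% higher. Guca2b, the hormone uroguanylin, went the other way, at 0.79, -0.24, 0.03 and 0.28. The other gene higher in pair 1 was Ang4, also listed here as a Paneth cell marker, at 0.21, 0.46, 0.02 and 0.01. The trefoil peptides Tff1 and Tff2, relatives of Tff3 best known from the stomach, stood at 0.004 and 0.11 in pair 1. Of the 12 genes, 0 passed limma's test over the 4 pairs, and at an unadjusted p under 0.05, which 3.68% of all genes reached as lower and 2.64% as higher, Tff2 alone was higher, at 0.11 ± 0.07 (SD, n = 4; adjusted p = 0.750).

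Mucins other than Muc2 showed little difference, with 0 of 6 measured genes past the threshold over the pairs and 0 at an unadjusted p under 0.05. That unadjusted p was reached by 3.68% of all genes as lower and by 2.64% as higher. The membrane mucin Muc13 ranged from -0.14 in pair 2 to 0.32 in pair 1, where it was the single mucin called (adjusted p = 0.00162). There 16.2% of all genes were lower and 14.6% higher. Muc1 had a mean of -0.04 ± 0.07 (SD, n = 4) and Muc20 of -0.03 ± 0.09. Medians of the 6 genes were -0.02, -0.02, -0.01 and 0.02.

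Genes that build mucin sugar chains split in direction. Fut2, a fucosyltransferase of terminal sugars, was lower within all 4 pairs beyond technical error, at -1.72, -0.19, -0.18 and -0.41, and averaged -0.63 ± 0.74 (SD, n = 4; limma adjusted p = 0.802). The sialyltransferase St6galnac1 was higher within all 4 pairs, at 0.68, 1.58, 0.54 and 0.85, and averaged 0.91 ± 0.46 (limma adjusted p = 0.701). Chst4, a sulphotransferase, and Gcnt3, a branching enzyme, stood at -0.95 and -0.69 in pair 1 and at -0.07 and -0.08 in pair 4. Of 13 measured genes, 5 were lower and 3 higher in pair 1, and 1 was lower and 4 higher in pair 4. Over all genes the shares were 16.2% and 14.6% in pair 1 and 6.65% and 6.20% in pair 4. None of the 13 passed over the 4 pairs in limma. At an unadjusted p under 0.05, 0 were lower and 2 higher, against 3.68% and 2.64% of all genes.

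Several transcription factors of the lineage were low in pair 1. There 6 of 12 were lower and 3 higher, with Creb3l4 at -1.14, Spdef at -0.93 and Atoh1 at -0.77, against 16.2% lower and 14.6% higher of all genes. The 3 higher were Elf3, an epithelial factor, at 0.84, Klf4 at 0.23 and Cdx2 at 0.23. Gfi1, which acts after Atoh1 in the secretory lineage, stood at -0.37 there. Foxa3 was lower in pair 1, at -0.41, but higher in pairs 2, 3 and 4, at 0.39, 0.45 and 0.24. In pair 4, 0 of 12 were lower and 2 higher, against 6.65% and 6.20% of all genes, and Spdef and Atoh1 stood at -0.18 and -0.15 (adjusted p = 0.131 and 0.185). The Notch target Hes1 stood at 0.03, 0.17, 0.19 and -0.004. Whether pairs 1 and 4 differ for the list was not tested. Over the 4 pairs 0 of the 12 passed in limma, also at an unadjusted p under 0.05. At that unadjusted p 3.68% of all genes were lower and 2.64% higher.

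Of 11 genes of the endoplasmic reticulum, where Agr2 acts, 3 were lower and 2 higher in pair 1, and 3 were lower and 0 higher in pair 4. Over all genes 16.2% were lower and 14.6% higher in pair 1, and 6.65% and 6.20% in pair 4. Kdelr3, a retrieval receptor for resident proteins, stood at -0.45, -0.16, -0.12 and -0.44, averaging -0.29 ± 0.18 (SD, n = 4; limma adjusted p = 0.727). The disulphide isomerase Pdia5 stood at -0.59, 0.09, -0.06 and -0.33. Ern2, a stress sensor largely restricted to mucus-secreting cells, stood at -0.65, 0.09, -0.06 and -0.10. The general stress genes Xbp1 and Hspa5 lay between -0.12 and 0.17 in all pairs. In limma 0 of the 11 passed over the pairs. At an unadjusted p under 0.05, 1 was lower, which was Kdelr3, and 0 were higher, against 3.68% and 2.64% of all genes.

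**Figure D3:**
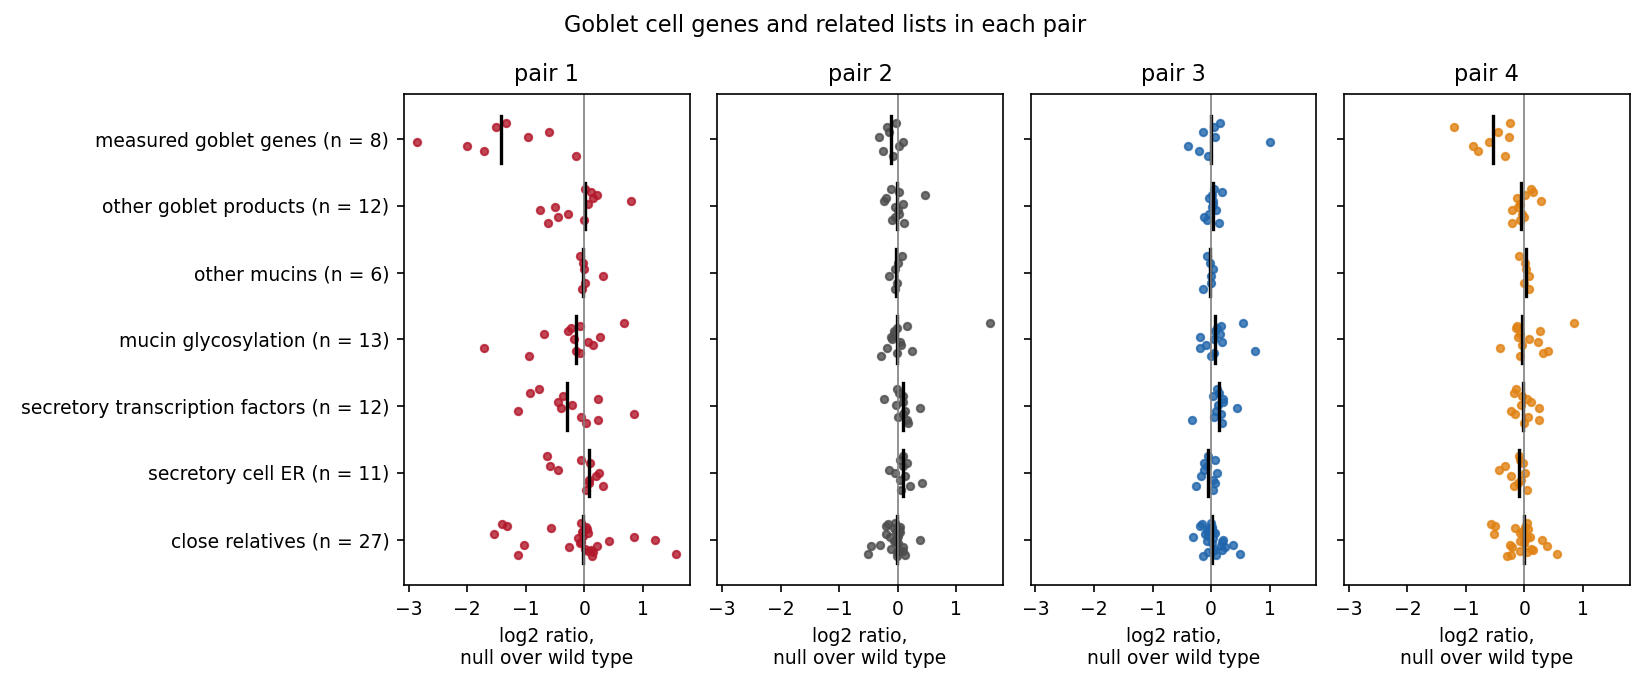
Log2 ratio of null over wild type (horizontal axes) for each measured gene of the goblet set and of 6 related lists (rows), in 4 panels for pairs 1 to 4, with points for genes and black lines for the median of a list. The goblet set has medians of -1.42, -0.12, 0.00 and -0.53 at gene level, and the medians of the other lists lie between -0.29 and 0.13.

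Klk1 belongs to a cluster of kallikrein genes that are close copies of each other in the mouse, and some of them read like it. Klk1b27, Klk1b5 and Klk1b8 stood at -1.55, -1.40 and -1.32 in pair 1, next to Klk1 at -1.71, and at -0.52, -0.57 and -0.50 in pair 4, next to -0.80. Klk1b11 stood at -0.57 and -0.17 in the same pairs. The other 6 measured relatives of Klk1, among them Klk1b9 and Klk1b16, lay between -0.08 and 0.07 in all pairs. How far the 70-base probes separate these copies was not measured, so the ratio of Klk1 is uncertain in that respect.

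The upstream sequences show how alike the cluster is, and Agr2, the other measured goblet gene with a promoter in the table, is given for contrast. They are the 250 bases before the annotated start, from RefSeq on build GRCm38.p6, all on the plus strand, with capitals for matches to CANNTG (the E-box read by factors such as Atoh1) and to TTTAAA. They lie at chr7:44225110-44225359 for Klk1, chr7:44216224-44216473 for Klk1b5, chr7:43975811-43976060 for Klk1b9 and chr12:35992675-35992924 for Agr2.
Klk1: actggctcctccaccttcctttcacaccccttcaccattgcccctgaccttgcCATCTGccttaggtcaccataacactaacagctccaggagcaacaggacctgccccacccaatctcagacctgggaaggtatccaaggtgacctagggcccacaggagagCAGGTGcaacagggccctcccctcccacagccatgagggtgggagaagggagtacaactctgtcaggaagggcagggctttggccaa
Klk1b5: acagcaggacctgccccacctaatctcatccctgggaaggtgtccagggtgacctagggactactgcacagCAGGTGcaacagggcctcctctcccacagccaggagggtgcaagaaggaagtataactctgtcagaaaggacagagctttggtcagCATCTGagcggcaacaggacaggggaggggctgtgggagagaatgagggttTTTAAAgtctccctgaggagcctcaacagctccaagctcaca
Klk1b9: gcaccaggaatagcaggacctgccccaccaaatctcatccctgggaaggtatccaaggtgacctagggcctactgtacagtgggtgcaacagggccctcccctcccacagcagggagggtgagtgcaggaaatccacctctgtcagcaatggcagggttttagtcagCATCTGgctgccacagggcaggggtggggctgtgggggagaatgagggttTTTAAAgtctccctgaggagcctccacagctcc
Agr2: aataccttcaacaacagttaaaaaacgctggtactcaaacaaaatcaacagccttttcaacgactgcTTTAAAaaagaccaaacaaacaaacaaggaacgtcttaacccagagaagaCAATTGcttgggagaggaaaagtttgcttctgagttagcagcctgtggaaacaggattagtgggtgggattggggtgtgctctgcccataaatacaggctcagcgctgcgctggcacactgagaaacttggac

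The whole table entries, which run a little past the start, were compared by local alignment. The promoter of Klk1b5 was identical to that of Klk1 at 85.6% of 208 aligned columns and that of Klk1b9 at 85.7% of 217. These were the highest identities among the 13 relatives with a promoter, and the lowest was 77.5% of 204 for Klk1b8. Agr2 aligned over 25 columns alone, at 80.0%. The mean ratio was -0.58 for Klk1b5 and 0.02 for Klk1b9. Both strands were searched, and CANNTG was found at 2 places in Klk1, 2 in Klk1b5, 1 in Klk1b9 and 1 in Agr2, whereas 66.2% of all 32851 promoters in the table hold it. TTTAAA, found once in Klk1b5, Klk1b9 and Agr2 and not in this window of Klk1, is in 12.1% of all. The kallikrein windows are offset, as the end of the Klk1 window resembles letters that lie before CATCTG and TTTAAA in Klk1b5 and Klk1b9. Their motif counts therefore compare partly different regions. The motif TTTATNG, of the kind bound by the intestinal factor Cdx2, was found in Agr2 but not in Klk1, and is in 9.81% of all. The match of a motif describes the letters of the window and shows no binding.

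Outside the set, 8 genes had the profile most like the median of the 8 goblet genes, by the root mean square difference over the 8 arrays among 15115 genes, a rule that uses the same ratios. The closest were Klk1b8, Klk1b27 and Klk1b5, with differences of 0.110, 0.117 and 0.145. Next came Rep15, an effector of the small GTPase Rab15, at 0.156, with -1.36, 0.01, -0.28 and -0.56 in pairs 1 to 4. Sfrp2, a secreted Wnt-binding protein, followed at 0.164, and Olfml2b, Zfhx4 and Capn6 at 0.183, 0.186 and 0.191. The median over all genes was 0.772. Among the goblet genes themselves the difference from their own median ran from 0.215 for Tff3 to 0.906 for Zg16, and the arrays of a pair share their RNA.

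**Figure D4:**
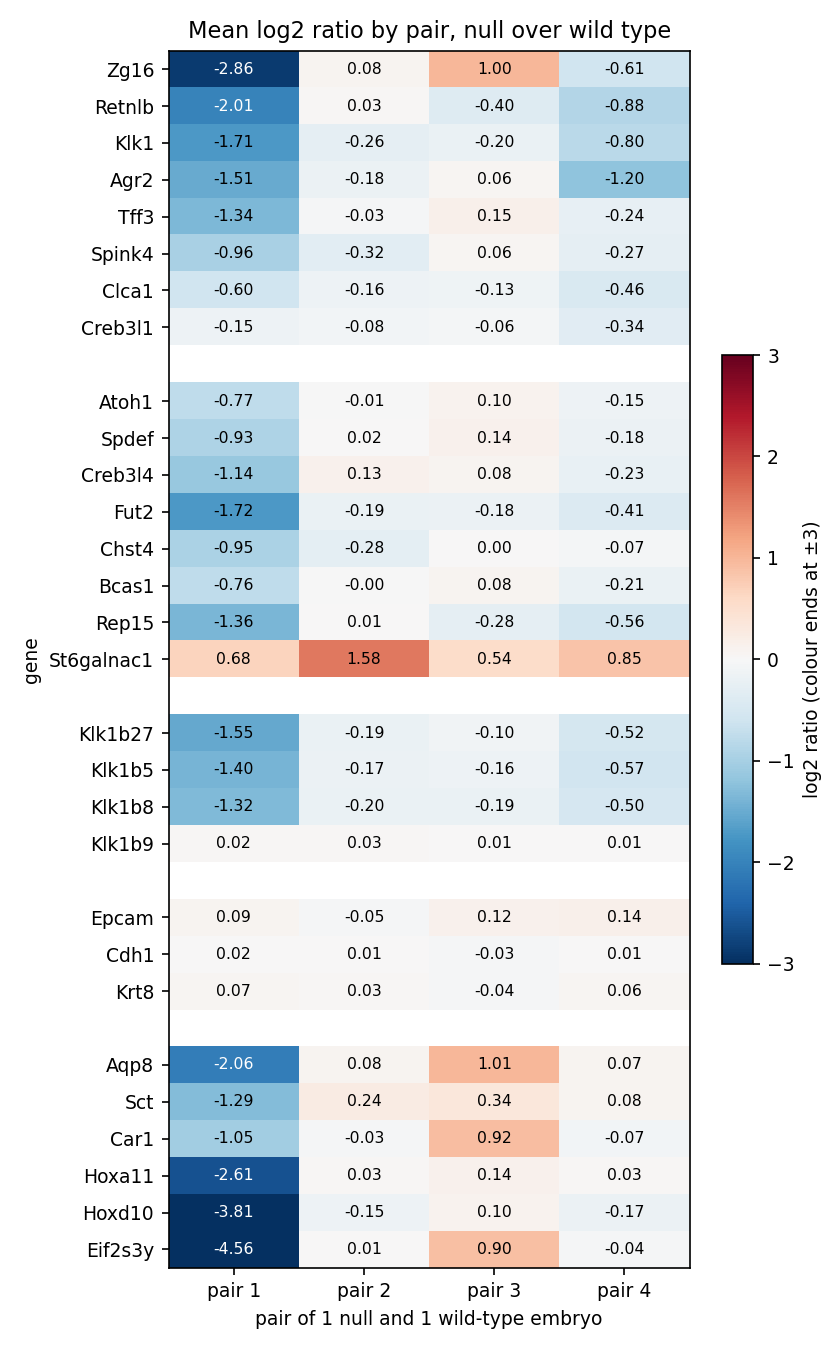
Mean log2 ratio of null over wild type by pair (columns, colour scale ending at ±3) for goblet cell genes, other genes of the lineage, kallikrein relatives, epithelial genes, and genes of colon, body axis and Y chromosome, from top to bottom (rows). Goblet genes are low in pairs 1 and 4, Klk1b9 and the epithelial genes shown (Epcam, Cdh1 and Krt8) lie near 0. Hoxd10 and Eif2s3y are low in pair 1 alone.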

How the data were processed

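Ileum RNA of 4 pairs of LGR5-null and wild-type embryos was compared on 8 dye-swapped MEEBO arrays. The authors deposited 1 log ratio per probe and array, read here as log2, and no source used here gives the normalization, intensities or backgrounds. Of 38467 probes 22941 carry 1 gene symbol. The 1876 probes of 4 identifier classes with no annotated probe were left out, which left 36591. The values were used as deposited. Arrays of a pair were averaged, and limma 3.58.1 (R 4.3.3) tested whether the mean of the 4 pairs was 0 (intercept only, 2-sided, Benjamini-Hochberg over all probes, threshold 0.05). A fit of all 8 arrays, with a term for dye and a separate mean for each pair, tested differences between and within pairs. Lists were read at gene level, as means over the probes of a gene, with p-values adjusted over 15123 genes. Precision is limited by the number of arrays, and pairs from the same parents are not fully independent.

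The members and lists were chosen with earlier results of these data known. All members are named with each probe. From each related list the rule takes the genes past the threshold, or otherwise those with the largest mean and range, and it takes the 8 genes nearest in profile. Other named genes were chosen after their values were seen. The test over pairs was also run on simulated independent ratios with limma's moderated spread of each probe. It recovered 99 of 100 randomly picked probes shifted by 1 and 98 of 100 shifted by 2. Most probes vary less between pairs than the goblet probes, so these numbers do not give its power for the goblet probes.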

Additional observations from a re-analysis of the deposited data

Results flagged for a closer look

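A pair was singled out when its distance to the nearest other pair filled a share of the whole span past Dixon's 95% critical value for 4 samples. Chance does this for about 1 in 20 independent items, or 2.85 of the 57 examined, and 11 were found, 9 of them in pair 1. Many of these items overlap and some entered because of their large range, so the 11 cannot be read as an excess. No goblet probe was among them.

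In pair 1, Fut2 stood at -1.72, with the other pairs between -0.41 and -0.18, Olfml2b at -1.27, with the others between -0.32 and -0.18, and Zfhx4 at -1.59, with the others between -0.27 and -0.17. The hormone gene Sct stood at -1.29 there, against 0.08 to 0.34 elsewhere. The Hox genes Hoxa11 and Hoxd10 stood at -2.61 and -3.81, against 0.03 to 0.14 and -0.17 to 0.10. The Y-linked genes Eif2s3y and Kdm5d stood at -4.56 and -2.42, and the median of the 3 measured Y-linked genes was -2.42. Outside pair 1, Muc1 stood at 0.069 in pair 2, against -0.09 to -0.07, and the pancreas median was 1.96 in pair 3, against -0.02 to 0.19. Their part in the goblet values was not tested.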

How the results depend on the processing

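Under 13 alternatives to the test over pairs, 0 goblet probes passed the threshold in any, and 114 of 115 recomputed goblet means kept their direction, with adjusted p from 0.215 up. The exception was Zg16 without pair 1, at 0.16 (adjusted p = 0.947). The random block, the ordinary 1-sample test and the use of all probes leave the means as they are, so those directions could not change. The same holds for gene means of genes with 1 probe. Centring the arrays, whose medians lay between -0.002 and 0.002, could hardly move a mean. Without 1 pair in turn, the median of the goblet means ran from -0.62 to -0.17 and the number of means below 0 from 8 to 9, and Tff3 ranged from -0.54 to -0.04. Leaving out pair 1 moved the means of Tff3, Spink4, Agr2, Retnlb and Klk1 by over 1.5 times, to -0.04, -0.17, -0.44, -0.42 and -0.42. Zg16 stood at -1.13 without pair 3, and Creb3l1 at -0.09 without pair 4. The goblet probes differing between pairs numbered 4 to 7 without 1 pair in turn, 4 without pairs 1 and 3 (an alternative chosen after seeing the data), and 7 in the test as reported. Over all 36591 tested probes the numbers were 1564 to 8928, 1427 and 8384. The probes called within pair 2, 1 as reported, were 0 without the dye term and 3 after scaling the arrays to equal spread, and 0 to 1 without 1 pair in turn. Those called within pair 4 ran from 5 to 8. With the pair as a random block, 12 of all tested probes passed and 0 goblet probes. The test over pairs is itself paired, since the null and wild-type samples of a pair share each array, so no replicate block was added. No intensities were used, so what signal over background limits is unknown.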

Other observations

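Some relatives of the goblet genes had ratios of the opposite sign. Clca3b, a relative of Clca1, stood at 1.21, 0.37, 0.20 and 0.30 in pairs 1 to 4, above 0 throughout, and had a mean of 0.52 ± 0.47 (SD, n = 4; limma adjusted p = 0.750). Clca3a1 and Clca4a stood at 0.84 and 0.42 in pair 1, where Clca1 stood at -0.60 at gene level. Retnlg, a relative of Retnlb found in myeloid cells, stood at -1.03, -0.30, 0.37 and -0.25, whereas Retnla stood at -0.07 in pair 1. Creb3l3, a relative of Creb3l1 active in liver and enterocytes, stood at 1.57, -0.51, 0.49 and 0.56. How far the probes separate these relatives was not measured.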
